A study of Mus musculus with 6 samples.

Results

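Transcripts of 45 genes for proteins of the synapse and the neuronal cytoskeleton were followed in microglia isolated from mouse brain after acute ischemic stroke (AIS). The genes were chosen by name and not by their group values, but with earlier results of these data known. They were found on the array by the accession of each probe. All 45 had a probe, among 23462 genes that could be named, and 44 of them were among the 18222 genes with a probe bright enough to be tested. The exception was Unc13a. Each gene is represented by its brightest tested probe unless stated, and the 45 genes had 80 probes in all, of which 69 were tested.

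There were 3 arrays of microglia labelled as without PGC-1α overexpression (control) and 3 labelled as with it (mPGC-1α), 1 array per sample, from mice given as male and 10 weeks old. According to the study's methods, the control mice were PGC-1α f/f littermates that carried a Cre-dependent PGC-1α gene linked to eGFP, and the mPGC-1α mice carried in addition the tamoxifen-inducible Cx3cr1-Cre/ER. Cre is thus driven by Cx3cr1, which is active in microglia and also in other cells of the myeloid lineage. All mice had received tamoxifen and a transient occlusion of the middle cerebral artery, on a C57BL/6 background. The cells were freed of myelin and debris on a Percoll gradient and then selected with magnetic beads against P2RY12, a receptor on the surface of microglia. The labels do not say whether each sample came from its own animal, so the p-values measure only the spread between these samples.

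Neurons signal at synapses. Vesicles loaded with transmitter dock at the active zone, and the SNARE proteins, helped by calcium sensors and complexins, fuse them with the membrane. On the receiving side, scaffold proteins of the postsynaptic density hold receptors and kinases in place, and microtubules, neurofilaments and their partners shape axon and dendrite. These transcripts are typical of neurons, some of them travel into processes, and microglia contact and engulf synapses. In the RNA of a bulk sample, fewer cells of a type cannot be told apart from less RNA per cell.

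The level of a gene is its log2 intensity after subtraction of the 75th percentile of its array, and every difference is mPGC-1α minus control on that log2 scale. Between 71.0% and 86.5% of spots were well above background, and 0 were saturated. A second slide carried array 3 of both groups, and on these arrays the scanner software had marked 3010 and 4931 spots as outliers, where it had marked 549 to 1094 on the others. P2ry12, the gene of the receptor used for selection, was above the 75th percentile of every array. With its marked spots kept, it lay at 4.40, 4.31 and 3.94 on the control arrays and at 4.28, 4.29 and 4.09 on the mPGC-1α arrays, in the order of their replicate numbers, as for all values that follow.

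Single genes were read as a check of the labels. Ppargc1a, which encodes PGC-1α, lay at -1.05, -0.55 and -0.53 on the control arrays and at -1.08, -0.86 and -1.12 on the mPGC-1α arrays, and its difference was -0.31 (SE 0.24, limma adjusted p = 0.798). The probe thus showed no overexpression, and mPGC-1α is used for the labelled group. The paper reports higher PGC-1α in microglia of mPGC-1α mice, by immunostaining and by qRT-PCR of primary microglia. The qRT-PCR used cells cultured from newborn mice and treated with tamoxifen. For the staining, tamoxifen induction is given but no stroke, so both differ in setting from these arrays. Whether the array probe reads the transcript of the added gene was not tested. Cx3cr1, whose regulatory sequence drives Cre, lay at 4.19, 3.66 and 4.11 on the control arrays and at 2.79, 2.36 and 3.13 on the mPGC-1α arrays, 2.34-fold lower without overlap (difference -1.23, SE 0.24, limma adjusted p = 0.684), and it was called without control array 2 (-1.39, limma adjusted p = 0.0149). A second Cx3cr1 probe was not tested because its spot was marked on 3 arrays. With those spots kept, it lay at 3.96, 4.41 and 3.75 and 3.57, 3.67 and 3.90, a smaller difference of -0.33 (SE 0.21) with overlap. Control array 2 stood apart from the other 5 arrays in genes of the sex chromosomes. Its Xist level was -4.83, where the others lay between -0.57 and -0.11, and the Y-linked Ddx3y was well above background on that array alone. All samples were labelled as male, a label that control array 2 matched in these genes and the other 5 arrays went against. Because it stood apart from the rest, results are also given without control array 2.

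Of the 44 genes tested, 43 lay higher on average in the mPGC-1α arrays, where 64% of all genes did, but none passed the test. Their median difference was 0.67, against 0.11 for all named genes, and 39 of the 44 lay above the median of all genes. With limma and Benjamini-Hochberg adjustment over all 40745 probes, 0 of the 44 reached an adjusted p below 0.05 (0% of all genes did), and the smallest adjusted p among them was 0.684. Higher at an unadjusted p below 0.05 were 20 genes, against 3.41% of all genes, and lower were 0, against 2.68%. For 12 of the 41 genes measured on all 6 arrays, every mPGC-1α array lay above every control array (8.48% of all genes), and for 0 every one lay below (3.45%). Pairing arrays by replicate number, 27 of the 41 were higher in each of the 3 pairs (22.1% of all genes) and 0 were lower in each (11.4%).

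**Figure D1:**
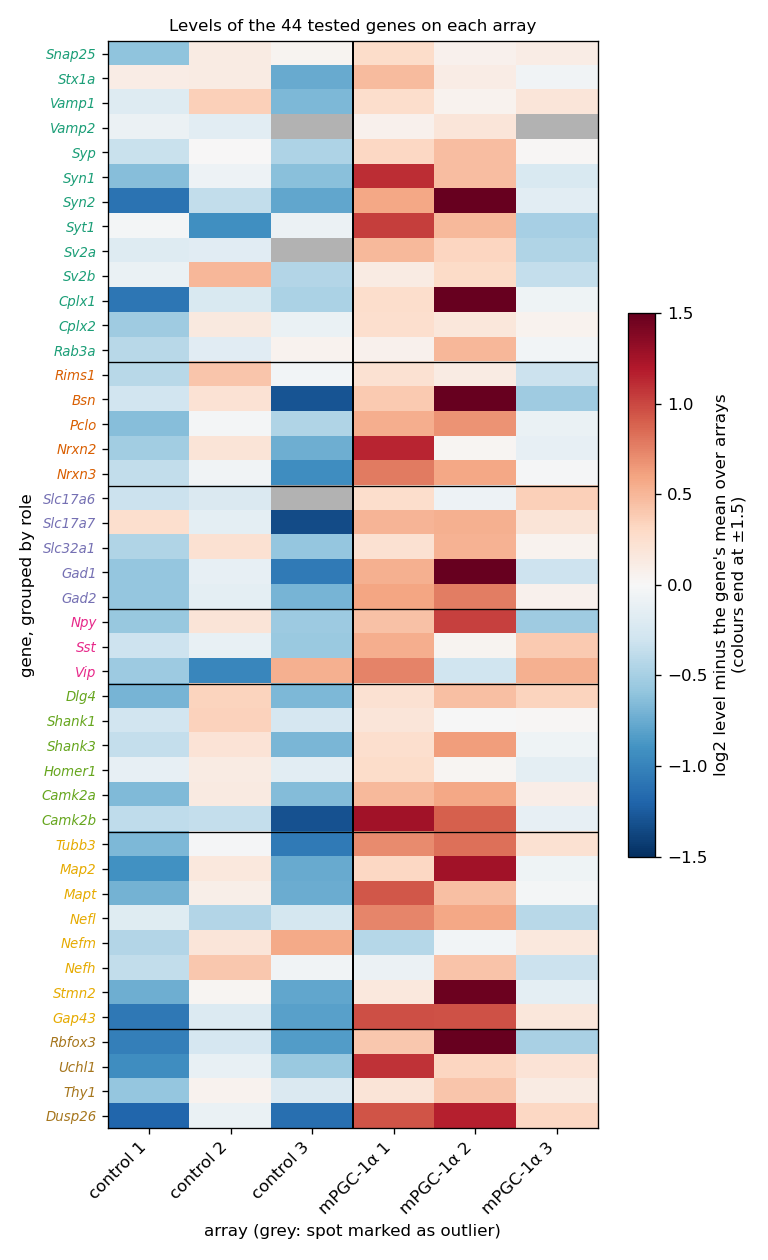
Level of each of the 44 tested genes (rows, grouped by role) on each of the 6 arrays (columns), as the log2 level minus the gene's mean over the arrays, with grey for a spot marked as an outlier. Control arrays 1 and 3 are mostly blue, mPGC-1α arrays 1 and 2 mostly red, and control array 2 and mPGC-1α array 3 lie between, with median deviations of -0.53, -0.62, 0.44, 0.50, 0.03 and -0.04 in that order.

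The arrays of a group were not alike in these genes. The median deviation of the 41 genes from their own mean over the 6 arrays was -0.53, 0.03 and -0.62 on the control arrays and 0.44, 0.50 and -0.04 on the mPGC-1α arrays. Control array 2 was the highest control for 35 of the 41 genes (85.4%), against 62% of all genes, and mPGC-1α array 3 was the lowest mPGC-1α array for 34 (82.9%), against 41.8%. Both mPGC-1α arrays 1 and 2 lay above every control array for 29 of the genes (70.7%), where 15.5% of all genes did so. Control array 2 exceeded mPGC-1α array 3 for 23 (56.1%), close to the 61.1% of all genes. All mPGC-1α arrays, array 3 included, lay above control arrays 1 and 3 for 29 genes (70.7%), against 33.4%.

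Without control array 2 the median difference was 0.83, against 0.22 for all genes. Limma then called 5 of the 44 genes, all higher, where 0.395% of all genes were called higher. They were Dusp26 (difference 1.97, adjusted p = 0.00697), Tubb3 (1.46, 0.0151), Gap43 (1.64, 0.0198), Dlg4 (1.02, 0.0269) and Camk2a (1.04, 0.0338). The count of 0 thus changed without this array, which was the highest control for 35 of the 41 genes. The number higher at an unadjusted p below 0.05 became 26 (13.3% of all genes). It dropped to 9 without control array 1 (1.72%) or without control array 3 (1.84%), to 11 without mPGC-1α array 1 (1.9%) and to 10 without mPGC-1α array 2 (1.95%). Within the first slide, which held 2 arrays per group, the median difference was 0.77, and within the second, with 1 array per group, it was 0.62. With the replicate number as a block, 26 of the 44 were higher at an unadjusted p below 0.05 (5.25% of all genes), and 0 passed the limma adjustment, the smallest adjusted p being 0.124 (among all genes 0% passed and were higher, and 0.00549% passed and were lower). Without replicate 2 of both groups, the same block gave 16 of 41 genes called, all higher (2.01% of all genes), and 27 higher at an unadjusted p below 0.05 (12.7%). With that block and the percentile taken over unmarked probes only, limma called 16 of the 44, all higher, where 1.39% of all genes were called higher, and 30 were higher at an unadjusted p below 0.05 (7.51%). Either choice alone, the block or that percentile, called 0 of the 44.

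**Figure D2:**
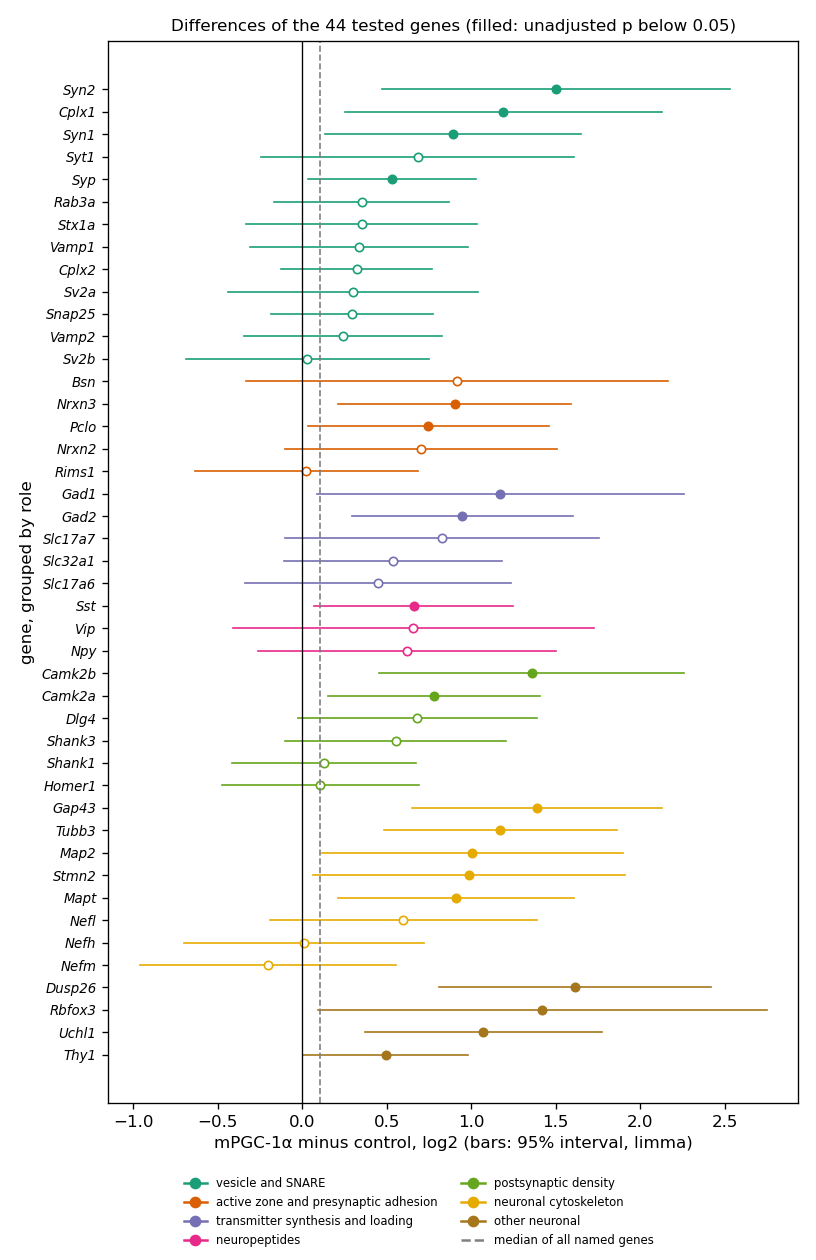
Difference of each tested gene (mPGC-1α minus control, log2, horizontal axis) with its 95% interval from limma, grouped by role, filled where the unadjusted p was below 0.05. Of the 44 points 43 lie right of 0, Nefm alone lies left of it at -0.20, and the dashed line marks the median of all named genes at 0.11.

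Promoter windows were read for motifs that are known for neuronal genes. RE1 is bound by REST, a repressor that silences neuronal genes in other cells, and the cAMP response element is bound by CREB, which responds to neuronal activity. RefSeq windows of build GRCm38.p6, from 250 bases before to 50 after each start, were matched by symbol for 32 of the 45 genes, 44 windows in all. The left part of RE1, TTCAGCACC on either strand, was in 2 of the 44 windows (4.55%) against 0.371% of all 32851, and its right part, GGACAGC on either strand, in 5 (11.4%) against 6.56%. The cAMP response element, TGACGTCA, was in 2 (4.55%) against 1.79%. The median GC content was 60% in the windows of these genes and 52.7% in all. Below are the 250 bases before the start of Syn1, Sst and Gad2, chosen because each holds a motif there and is described with its levels in what follows, with the motifs in capitals. In Syn1 (GRCm38.p6, chrX:20920919-20921168, minus strand) they are the left part of RE1 and the cAMP response element, beginning 232 and 159 bases before the start. In Sst (chr16:23890845-23891094, minus strand) it is the cAMP response element, 48 bases before the start, and in Gad2 (chr2:22622077-22622326, plus strand) the right part of RE1, 155 bases before it. A match describes the letters of the window and was not tested as a site.
Syn1: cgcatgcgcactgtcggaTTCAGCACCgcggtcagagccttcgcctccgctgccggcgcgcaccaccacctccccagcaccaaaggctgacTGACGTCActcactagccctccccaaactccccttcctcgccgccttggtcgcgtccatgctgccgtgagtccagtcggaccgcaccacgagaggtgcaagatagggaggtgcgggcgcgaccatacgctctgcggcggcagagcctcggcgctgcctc
Sst: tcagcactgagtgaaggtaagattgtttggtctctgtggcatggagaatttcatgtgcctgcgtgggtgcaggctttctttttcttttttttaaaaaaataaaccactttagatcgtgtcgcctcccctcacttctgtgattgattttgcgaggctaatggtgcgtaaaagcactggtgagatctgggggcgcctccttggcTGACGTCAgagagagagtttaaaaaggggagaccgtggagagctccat
Gad2: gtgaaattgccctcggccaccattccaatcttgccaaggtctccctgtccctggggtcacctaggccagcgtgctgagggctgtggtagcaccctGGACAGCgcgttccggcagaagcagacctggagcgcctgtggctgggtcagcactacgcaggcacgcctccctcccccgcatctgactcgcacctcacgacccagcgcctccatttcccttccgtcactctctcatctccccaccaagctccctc

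The 13 genes of synaptic vesicles and the SNARE machinery had a median difference of 0.35, all lay above 0, and 4 of them (Syn2, Cplx1, Syn1 and Syp) had an unadjusted p below 0.05. Syn2, one of the synapsins that tether vesicles to actin, lay at -2.33, -1.59 and -2.00 on the control arrays and at -0.64, 0.60 and -1.37 on the mPGC-1α arrays. Every mPGC-1α array exceeded every control array, with array 2 far above the other mPGC-1α arrays. The difference of 1.50 (SE 0.46, 2.83-fold, limma adjusted p = 0.684) was 1.94 among first-slide arrays and 0.63 on the second. Cplx1, a complexin that clamps and then aids SNARE-driven fusion, lay at -0.88, -0.03 and -0.27 and 0.47, 1.78 and 0.13, again with no overlap and with mPGC-1α array 2 highest. Its difference was 1.19 (SE 0.42, limma adjusted p = 0.684). For both genes the exact two-sided permutation test over the 20 assignments of the 6 values gave p = 0.1, the smallest value that 3 against 3 arrays allow.

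Syn1, the synapsin whose promoter is printed above, lay at 0.12, 0.70 and 0.14 on the control arrays and at 1.87, 1.23 and 0.54 on the mPGC-1α arrays. The groups overlapped, since control array 2 lay above mPGC-1α array 3, and the difference was 0.89 (SE 0.34, limma adjusted p = 0.685). At the other end of this group, Sv2b, a vesicle glycoprotein, lay at -2.12, -1.53 and -2.45 and -1.90, -1.73 and -2.38, a difference of 0.03 (95% interval -0.69 to 0.75). Syp, the vesicle membrane protein synaptophysin, had a difference of 0.53 and no overlap between the groups. The remaining 8 genes differed by 0.24 to 0.68 and missed the unadjusted threshold. Among them were the SNARE proteins Snap25, Stx1a, Vamp1 and Vamp2, the calcium sensor Syt1, the vesicle protein Sv2a, the complexin Cplx2 and the vesicle GTPase Rab3a. Vamp2 was measured on 2 arrays of each group and Sv2a on 2 control arrays, because other spots were marked.

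Of the 6 genes of the active zone and presynaptic adhesion, 5 were tested, with a median difference of 0.75. Nrxn3, a neurexin that binds postsynaptic partners across the cleft, lay at -0.76, -0.44 and -1.32 on the control arrays and at 0.39, 0.20 and -0.40 on the mPGC-1α arrays. The lowest mPGC-1α array was just above the highest control array, and the difference was 0.90 (SE 0.31, limma adjusted p = 0.684), 0.90 among first-slide arrays and 0.91 on the second. The dimmer tested probe of Nrxn3, however, differed by 0.13 (SE 0.38), with overlap. Pclo, a large scaffold of the active zone, lay at -3.32, -2.71 and -3.13 and -2.14, -2.01 and -2.78, and only mPGC-1α array 3 lay below a control array, array 2. Its difference was 0.75 (SE 0.32, limma adjusted p = 0.689).

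Nrxn2, another neurexin, lay at 2.67, 3.39 and 2.46 on the control arrays and at 4.33, 3.22 and 3.07 on the mPGC-1α arrays, where array 1 stood above all others. Its difference of 0.70 (SE 0.36) missed the unadjusted threshold, as did that of the scaffold Bsn, 0.91 (SE 0.55). Rims1, which links vesicles to calcium channels, lay at -1.78, -0.95 and -1.41 and -1.14, -1.24 and -1.69, with a difference of 0.03 (95% interval -0.63 to 0.68). Unc13a, which primes vesicles for release, was well above background on 2 of the 3 arrays of each group and was not tested. Its levels were -4.73, -4.37 and -5.72 on the control arrays and -4.06, -4.64 and -5.36 on the mPGC-1α arrays, which overlapped.

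The 5 genes of transmitter synthesis and loading had a median difference of 0.83 and all lay above 0. Gad2, an enzyme that makes the inhibitory transmitter GABA and whose promoter is printed above, lay at -2.35, -1.91 and -2.46 on the control arrays and at -1.17, -1.0 and -1.70 on the mPGC-1α arrays. The groups did not overlap. The difference was 0.95 (SE 0.29, 1.93-fold, limma adjusted p = 0.684), 1.04 among first-slide arrays and 0.76 on the second. Gad1, the other GABA-synthesising enzyme, lay at -4.62, -4.17 and -5.10 and -3.51, -2.52 and -4.36 and was well above background on 2 of the 3 control arrays. Control array 2 lay above mPGC-1α array 3, and the difference was 1.17 (SE 0.48, limma adjusted p = 0.687).

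Slc17a7, a vesicular transporter for glutamate, lay at -2.92, -3.32 and -4.51 on the control arrays and at -2.66, -2.63 and -2.97 on the mPGC-1α arrays. The mPGC-1α arrays were close together, control array 1 lay among them, and the difference of 0.83 (SE 0.41) missed the unadjusted threshold. Slc32a1, the vesicular GABA transporter, differed by 0.54 (SE 0.29). Slc17a6, a second glutamate transporter, lay at -4.12 and -4.01 on control arrays 1 and 2 and at -3.54, -3.87 and -3.44 on the mPGC-1α arrays, which differed by 0.45 (SE 0.34). Its spot on control array 3 was marked, and with that spot kept, at -2.46, the difference was -0.09. Genes of inhibitory and of excitatory neurons thus both lay above 0 in the main values.

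All 3 neuropeptide genes lay above 0, between 0.62 and 0.66. Sst, which encodes somatostatin of inhibitory interneurons and whose promoter is printed above, lay at -2.09, -1.89 and -2.33 on the control arrays and at -1.23, -1.73 and -1.38 on the mPGC-1α arrays, without overlap. The difference was 0.66 (SE 0.26, limma adjusted p = 0.686), 0.51 among first-slide arrays and 0.96 on the second. Npy, neuropeptide Y, lay at -0.30, 0.45 and -0.29 and 0.70, 1.29 and -0.27, and mPGC-1α array 3 was level with control arrays 1 and 3. Vip, vasoactive intestinal peptide, lay at -5.54, -5.96 and -4.45 and -4.24, -5.28 and -4.46, with control array 3 among the mPGC-1α arrays. Neither Npy (SE 0.39) nor Vip (SE 0.47) reached the unadjusted threshold.

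Among the 6 genes of the postsynaptic density the median difference was 0.62. Camk2b, a subunit of the calcium/calmodulin-dependent kinase of synapses, lay at -1.48, -1.46 and -2.41 on the control arrays and at 0.15, -0.21 and -1.22 on the mPGC-1α arrays. All mPGC-1α arrays lay above all control arrays, array 3 by the least. The mean went from -1.78 ± 0.54 (SD, n = 3) to -0.43 ± 0.71 (SD, n = 3), a difference of 1.36 (SE 0.40, 2.56-fold, limma adjusted p = 0.684), but its dimmer probe differed by -0.15. Camk2a, the other main subunit of the kinase, lay at -0.81, -0.02 and -0.80 and 0.33, 0.43 and -0.05, and control array 2 was marginally above mPGC-1α array 3. Its difference was 0.78 (SE 0.28, limma adjusted p = 0.684), but its dimmer probe differed by 0.09.

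Dlg4, the scaffold PSD-95, lay at -1.88, -0.85 and -1.85 on the control arrays and at -0.95, -0.73 and -0.84 on the mPGC-1α arrays. Control array 2 was level with the mPGC-1α arrays, and control arrays 1 and 3 lay well below, so that the difference was 0.68 (SE 0.31) with all arrays and 1.02 without control array 2. The dimmer tested probe of Dlg4, however, differed by 0.12 (SE 0.27) with all arrays, and its groups overlapped. The scaffolds Shank3 and Shank1 differed by 0.55 (SE 0.29) and 0.13 (SE 0.24). Homer1, which ties glutamate receptors to Shank proteins, lay at -2.40, -2.16 and -2.44 and -2.01, -2.25 and -2.43, a difference of 0.11 (95% interval -0.48 to 0.69).

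The 8 cytoskeletal genes had a median difference of 0.95, and 5 of them (Gap43, Tubb3, Mapt, Map2 and Stmn2) had an unadjusted p below 0.05. Gap43, a protein of growth cones and sprouting axons, lay at -2.59, -1.73 and -2.34 on the control arrays and at -0.56, -0.57 and -1.36 on the mPGC-1α arrays. The groups were apart on every array. The mean went from -2.22 ± 0.44 (SD, n = 3) to -0.83 ± 0.46 (SD, n = 3), a difference of 1.39 (SE 0.33, 2.62-fold, limma adjusted p = 0.684), 1.60 among first-slide arrays and 0.98 on the second. Tubb3, the neuronal β-tubulin, lay at -1.06, -0.40 and -1.44 and 0.32, 0.44 and -0.15, also without overlap. Its difference was 1.17 (SE 0.31, 2.25-fold, limma adjusted p = 0.684), and within the slides it was 1.11 and 1.29.

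Mapt, the axonal microtubule protein tau, lay at 0.72, 1.52 and 0.68 on the control arrays and at 2.36, 1.88 and 1.40 on the mPGC-1α arrays, where control array 2 exceeded mPGC-1α array 3. The difference was 0.91 (SE 0.31, limma adjusted p = 0.684), and all 3 of its dimmer probes differed by more, 1.06 to 1.26. Map2, its counterpart in dendrites, differed by 1.00 (SE 0.40) and Stmn2, a stathmin that regulates microtubules in growing axons, by 0.99 (SE 0.41). The dimmer tested probe of Map2, however, differed by 0.08 (SE 0.26), with overlap. The neurofilament genes missed the unadjusted threshold. Nefl differed by 0.60 (SE 0.35), Nefh by 0.01 (SE 0.32), and Nefm by -0.20 (SE 0.34). Nefm, the medium neurofilament chain, lay at -3.32, -2.70 and -2.32 on the control arrays and at -3.31, -2.92 and -2.72 on the mPGC-1α arrays, with control array 3 the highest of all. The dimmer probes of Nefm and Nefh had the opposite sign, with differences of 0.78 (SE 0.40) and -0.42 (SE 0.43). A test of neurofilaments against the other cytoskeletal genes was not made.

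The other 4 neuronal genes had the highest median of the role groups, 1.25, and each had an unadjusted p below 0.05. Dusp26, a phosphatase of neural tissue, lay at -2.34, -1.26 and -2.29 on the control arrays and at -0.21, 0.00 and -0.85 on the mPGC-1α arrays. Its groups were apart, and its difference of 1.61 (SE 0.36, 3.06-fold, limma adjusted p = 0.684) was the largest of the 44, 1.70 among first-slide arrays and 1.45 on the second. Uchl1, an abundant deubiquitinase of neurons, lay at -1.26, -0.45 and -0.90 and 0.75, -0.01 and -0.13, without overlap (difference 1.07, SE 0.31, limma adjusted p = 0.684).

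Rbfox3, which encodes the splicing factor NeuN used to mark neuronal nuclei, lay at -2.84, -2.06 and -2.65 on the control arrays and at -1.40, 0.41 and -2.29 on the mPGC-1α arrays. Array 2 of the mPGC-1α group stood far above the rest and array 3 lay below control array 2. The difference of 1.42 had the widest error of the 44 genes (SE 0.59, 95% interval 0.09 to 2.75, limma adjusted p = 0.687). Thy1, a surface glycoprotein of neurons that is also found on other cells, lay at 1.31, 1.93 and 1.67 and 2.08, 2.30 and 2.00, without overlap, and differed by 0.49 (SE 0.22, limma adjusted p = 0.693).

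**Figure D3:**
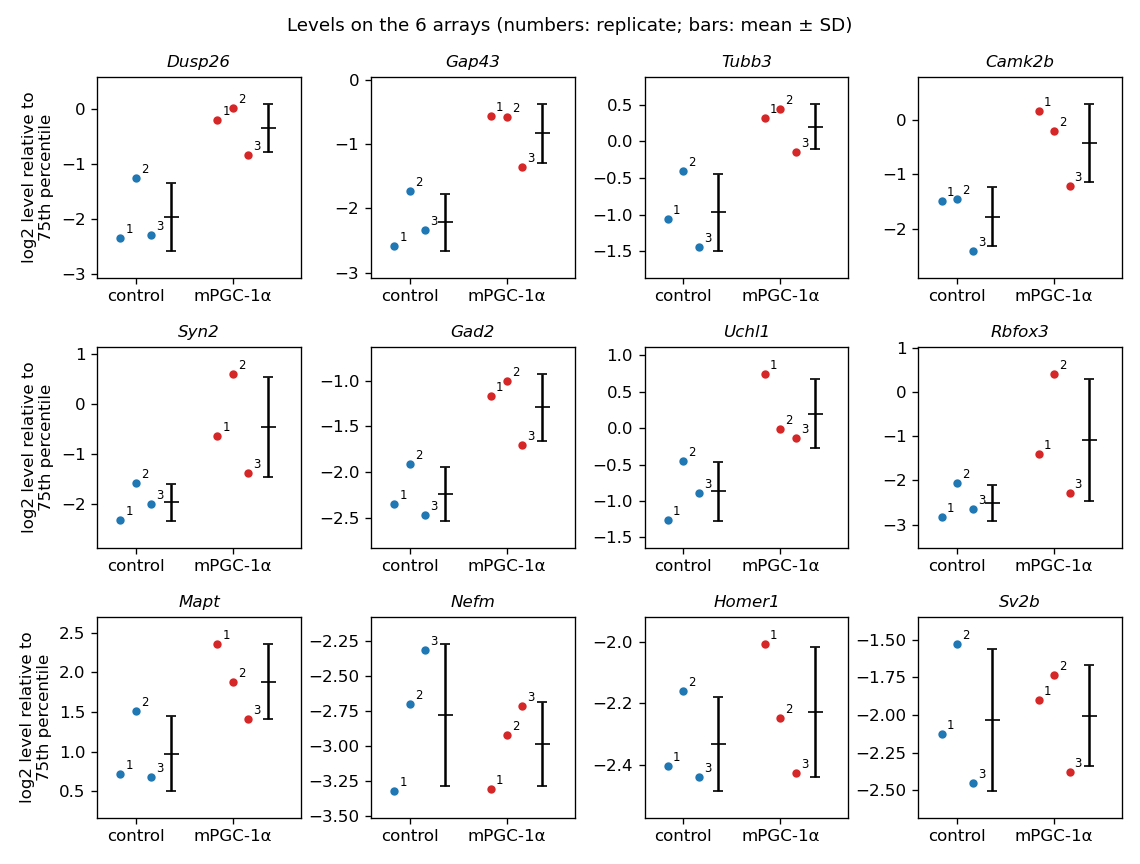
Level on each array (log2 relative to the array's 75th percentile, vertical axis, own scale in each panel) of 12 of the genes described, with replicate numbers and the mean ± SD of each group (n = 3) beside the points. In the top row, Dusp26, Gap43, Tubb3 and Camk2b, the groups do not overlap, while Nefm, Homer1 and Sv2b in the bottom row overlap.

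The probes of a gene did not always agree. Of the 18 genes with several tested probes, 6 had probes that differed in sign. The 25 dimmer probes had a median difference of 0.20, against -0.10 for the 8004 dimmer probes of all named genes, and 19 of them lay above 0. At an unadjusted p below 0.05, 6 dimmer probes were higher and 1 was lower. The higher ones were of Rims1, Nrxn2 and Rbfox3 and 3 of Mapt. The lower one, of Homer1, lay at -2.34, -3.42 and -3.11 on the control arrays and at -3.85, -3.95 and -4.32 on the mPGC-1α arrays, with a difference of -1.08 (SE 0.35, limma adjusted p = 0.684). For Rims1, with 0.03 on its brightest probe, the dimmer probe differed by 0.96 (SE 0.42). Snap25, singled out after its values were seen, differed by 0.30 (SE 0.21) on its brightest probe and by -1.28 (SE 0.81) on a dim one. When the mean of all tested probes stood for a gene, the median difference of the 44 genes was 0.55 and 14 were higher at an unadjusted p below 0.05 (2.6% of all genes).

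**Figure D4:**
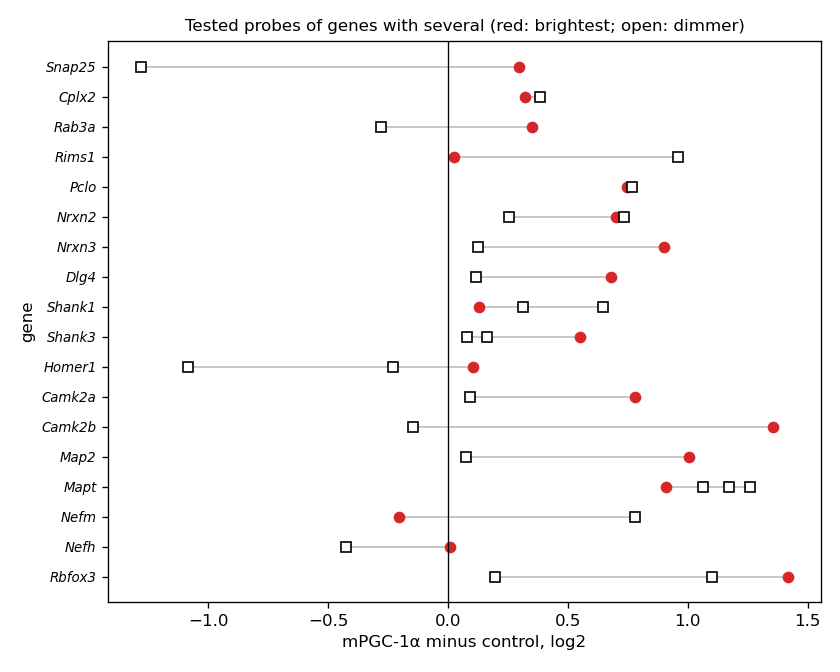
Difference (mPGC-1α minus control, log2, horizontal axis) on each tested probe of the 18 genes that had several, with the brightest probe filled and dimmer probes open. The probes of Mapt lie close together at 0.91 to 1.26, whereas those of Snap25, Rab3a, Homer1, Camk2b, Nefm and Nefh fall on both sides of 0.

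A list of 59 further synaptic and neuronal genes was examined for the same comparison, and 55 of them were tested. Their median difference was 0.47, and 50 lay above 0 (64% of all genes). As for the 45 genes, 0 passed the adjustment. At an unadjusted p below 0.05, 15 were higher (3.41% of all genes) and 0 were lower (2.68%). The groups did not overlap for 19 of 51, all of them higher (8.48% of all genes). Amph, amphiphysin of vesicle endocytosis, lay at -3.77, -3.78 and -4.03 on the control arrays and at -2.69, -1.35 and -2.86 on the mPGC-1α arrays (difference 1.56, SE 0.41, limma adjusted p = 0.684). Stmn3, a stathmin, differed by 0.89 (SE 0.26), Rab3c, a vesicle GTPase, by 1.43 (SE 0.43), and Cck, the neuropeptide cholecystokinin, by 0.98 (SE 0.31), each without overlap. Cck was called without control array 2 (1.22, limma adjusted p = 0.0473). The lowest were Syn3, the third synapsin, at -0.55 (SE 0.40), and Elavl2, a neuronal RNA-binding protein, at -0.21 (SE 0.36).

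Oligodendrocyte and astrocyte markers also lay higher in the mPGC-1α arrays, although 0 of either list passed the limma adjustment with all arrays. Of 12 oligodendrocyte markers all were tested and 11 lay above 0 (64% of all genes). Their median difference was 0.87, and 5 were higher at an unadjusted p below 0.05 (3.41% of all genes). Over the 10 markers measured on all 6 arrays, the summed level (log2) was 3.54, 4.21 and 3.28 on the control arrays and 5.17, 4.37 and 4.51 on the mPGC-1α arrays. Of 12 astrocyte markers 11 were tested, all 11 lay above 0 (64% of all genes) and 6 were higher at an unadjusted p below 0.05 (3.41%). Their median was 0.75, and their summed levels were 3.86, 4.48 and 4.44 and 4.64, 6.08 and 4.83. Neither list overlapped between the groups in its sum. The summed level of the 41 synaptic and cytoskeletal genes was 6.82, 7.50 and 7.24 on the control arrays and 7.75, 7.62 and 7.43 on the mPGC-1α arrays, so that control array 2 lay above mPGC-1α array 3. Cplx2 and Snap25, the brightest of them, held 70.7% to 82.7% of that sum, and without them it was 4.72, 5.33 and 4.71 and 5.95, 5.85 and 5.22, with the same overlap. The median log2 level of the 41 genes, at -1.47, -0.93 and -1.44 and -0.21, -0.10 and -0.85, did not overlap. The lists shared 0 genes.

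By name, the myelin genes Mal and Cldn11 and Aspa, an enzyme of oligodendrocytes, differed by 1.76 (SE 0.43), 1.65 (SE 0.50) and 1.27 (SE 0.44), and at the low end Ugt8a by -0.38 and Mbp by 0.16. Without control array 2, Mal differed by 2.18 (limma adjusted p = 0.0178) and Cldn11 by 2.13 (limma adjusted p = 0.037), past the threshold. The astrocyte genes Gjb6 and Gja1, which encode connexins, differed by 1.17 (SE 0.31) and 1.21 (SE 0.38), Fgfr3 by 0.67 and Atp1b2 by 0.75, with Sox9 at 0.02 and Aqp4 at 0.26 lowest. The oligodendrocyte list was highest on mPGC-1α array 1, with median deviations of 1.14, 0.05 and 0.23 on the mPGC-1α arrays. The astrocyte list was highest on mPGC-1α array 2, with 0.07, 0.83 and 0.13. Of the mPGC-1α arrays, each list was thus lowest on the other of arrays 1 and 2. The synaptic and cytoskeletal genes were high on both, at 0.44, 0.50 and -0.04. The part of these cells in the differences of the synaptic and cytoskeletal genes was not tested.

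Endothelial and mural markers differed less, with a median of 0.30 over 8 of 10 genes tested. Higher at an unadjusted p below 0.05 was 1, Pdgfrb of pericytes (0.65, SE 0.26), against 3.41% of all genes. Pecam1 was at -1.22 (SE 0.62), Tie1 at 0.40, Esam at 0.39, Cldn5 at 0.34 and Kdr at 0.23. Pecam1, an adhesion molecule of endothelium, lay at 0.28, -2.24 and 0.49 on the control arrays and at -1.79, -1.80 and -1.53 on the mPGC-1α arrays, and without control array 2, which lay below all the others, its difference was -2.09 (limma adjusted p = 0.00141). The microglial markers, 12 of 14 tested, had a median of 0.05. At an unadjusted p below 0.05, 0 were higher (3.41% of all genes) and 1, Cx3cr1, was lower (2.68%). Their summed level was 7.44, 7.59 and 7.72 on the control arrays and 7.62, 7.63 and 7.71 on the mPGC-1α arrays. Beside Cx3cr1, the microglial genes Siglech, Olfml3 and Gpr34 differed by 0.44 (SE 0.20), -1.36 (SE 0.66) and -0.46 (SE 0.23). Olfml3 lay at 4.29, 1.45 and 4.35 on the control arrays and at 1.87, 1.74 and 2.39 on the mPGC-1α arrays. Control array 2 was again the lowest of all, and without it the difference was -2.32 (limma adjusted p = 0.00129).

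**Figure D5:**
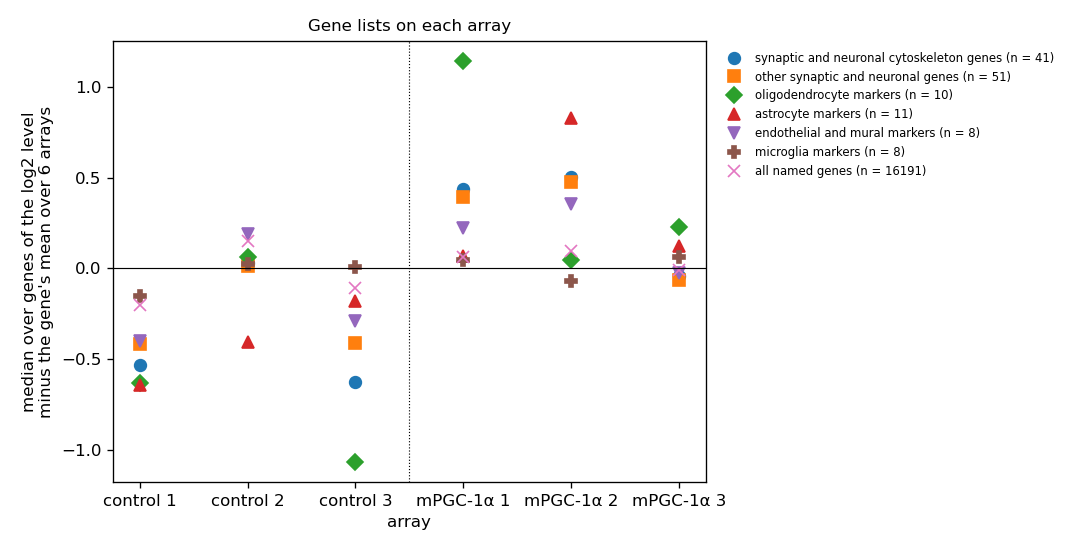
Median over the genes of each list of the log2 level minus the gene's mean over the 6 arrays (vertical axis), on each array (horizontal axis), for genes measured on all 6 arrays. The synaptic and cytoskeletal genes run from -0.62 on control array 3 to 0.50 on mPGC-1α array 2, with the other synaptic and neuronal genes close to them on each array, while the microglial markers stay between -0.15 and 0.06.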

How the data were processed

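RNA of P2RY12-selected microglia was measured on 6 single-colour Agilent mouse arrays, 3 per group by the genotype in the labels. The dye is given both as Cy3 and, in the labelling protocol, as Cy5, and the green channel, the only one in the files, was read. The deposited scanner files hold linear intensity values, background-subtracted and detrended within each array by Agilent Feature Extraction 11.5.1.1 but not normalized between arrays. The authors' series matrix holds log2 values from GeneSpring for 46731 probes, which was used as an alternative and correlated with the processed signal at r of at least 0.999.

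In R 4.3.3, with the package data.table (version 1.17.8), the 75th percentile over all 56605 non-control probes of an array was subtracted from the log2 processed signal. The values leave out spots that the software had marked (non-uniform, population outlier), but the percentile keeps them, so that it covered the same probes on each array. This choice was made with the earlier results known, and the percentile over unmarked probes is an alternative. For a probe to be tested, its signal had to be well above background on every unmarked array of 1 group or both, on 2 such arrays or more, with 2 values or more per group, which left 40745 probes. Probes were named through their accession in a RefSeq table of GRCm38.p6, with a match for 33767 of 56605, and 26226 of the tested probes had a name. The array grid was built on an older assembly, so no gene coordinates are given.

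The comparison used limma 3.58.1 (lmFit with a term for group alone, then eBayes with an intensity trend, two-sided), and p-values were adjusted by Benjamini-Hochberg over the 40745 probes, with 0.05 as the threshold, and single genes also with an exact permutation test. Named in each role group were up to 3 genes with the smallest unadjusted p, the gene with the lowest difference, and any gene that was not tested or whose probes differed in sign by more than 0.5 each way. From the other lists up to 4 genes with the smallest unadjusted p and the 2 lowest were named, beside P2ry12, Cx3cr1 and Ppargc1a. A gene of these lists that the rule names is not reported here. The 45 genes, the lists and the tests were chosen with earlier results of these data known. Promoters were read with Python 3.11.15 and figures drawn with matplotlib 3.10.9.

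Arrays of equal replicate number correlated in their deviation from the group mean at 0.247, 0.224 and 0.171 across 36995 probes, and arrays of unequal number between -0.337 and 0.035. Each of the former was over 0.1, so the number was taken to pair the samples, although no label says what it means. Array 3 of both groups lay on the second slide, so for these arrays number and slide cannot be told apart. The arrays of replicate 2 differed from each other in the sex-chromosome genes. A fit with the replicate number as a block is given where it changed a count, and the SE and p of a single gene come from the fit with group alone unless stated. The arrays lay on 2 slides, which was fitted as a block. Alternatives in normalization, background correction (normexp, offset 50), detection filter, variance model, blocks, probes and left-out arrays are given in the closing section. With 3 arrays per group, their number limits the precision.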

Additional observations from a re-analysis of the deposited data

How the results depend on the processing

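The median difference of these genes stayed above that of all genes under each of the 22 alternatives, between 0.51 and 0.93. The number of them tested ran from 40 to 45 by setting. The number above 0 ran from 39 (of 40, well above background on all 6 arrays) to 44 (of 45, no detection filter). Leaving out each array in turn, the number of these genes called by limma ranged from 0 to 5, the number higher at an unadjusted p below 0.05 from 9 to 26, that of the other synaptic and neuronal genes from 7 to 28 (1.72% to 13.3% of all genes), and the number of probes called from 0 to 2073, the most without control array 2 (8 without mPGC-1α array 2).

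With the replicate block 1 probe was called, which was lower, and 0 of the 44 genes. The other pairing fits were chosen after seeing the data, as was centring on the median. With the replicate block and without replicate 2 limma called 3472 probes and 16 of 41 genes, among them all 5 called without control array 2, with 28 other synaptic genes higher at an unadjusted p below 0.05 (12.7% of all genes). With the replicate block and the percentile over unmarked probes it called 1720 probes and 16 genes, 3 of those 5 among them, with 26 other synaptic genes (7.51%). Under the remaining alternatives 0 of the 44 were called. For the calls under the block and that scaling together, the cause was not tested.

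Small differences changed sign when 1 array was left out. The lowest and highest values were -0.18 and 0.28 for Sv2b, -0.18 and 0.24 for Rims1, -0.20 and 0.21 for Nefh, -0.48 and 0.027 for Nefm, -0.0051 and 0.21 for Homer1, -0.12 and 0.24 for Sox9, -0.025 and 0.37 for Mbp, -0.11 and 0.53 for Kdr, and -0.42 and 0.049 for Elavl2. After quantile normalization Sox9 was at -0.0088, with or without the replicate block, and after normexp at -0.042. In the authors' matrix it was at -0.0087, Mbp at -0.053 and Slc17a6 at -0.044. Slc17a6 was at -0.086 with marked spots kept, and Mbp at -0.042 with the replicate block on quantile-normalized values. When all probes of a gene were averaged, Atp1b2 was at -0.18, Homer1 at -0.40, Mbp at -0.22, Nefh at -0.21, Nefm at 0.29, Snap25 at -0.49 and Ugt8a at 0.059.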
